A study of Mus musculus with 24 samples.

Results

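The 33 genes described here encode collagens, laminins and other proteins of the extracellular matrix, measured in brown adipose tissue (BAT). They are the 18 collagen genes among the 12615 genes of the count table, plus 15 of 16 listed matrix genes, since Nid2 was not in the table. The annotation has 44 collagen genes of this naming pattern. The members were chosen by gene name with earlier results of these data known, and the study itself had named Svep1 from these libraries. All 33 passed the filter on low counts, so that every member was among the 12485 genes tested.

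The matrix of fat has a layer of fibrils between the cells and a thin sheet, the basement membrane, that wraps each adipocyte and each capillary. Collagens of the fibrillar group form the fibrils, collagen VI forms beaded filaments beside them, and collagen IV, laminins and nidogen form the basement membrane. Most fibrillar collagen of fat is made by fibroblasts and adipocyte progenitors, whereas adipocytes, endothelial cells and mural cells also make basement membrane proteins. BAT is remodelled in the cold, when it grows new capillaries and progenitors become adipocytes.

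RNA from the BAT of 24 mice went into libraries of a 3′ tag kit, in which a long transcript yields no more tags than a short one. All mice carried floxed alleles of both corepressor genes (TBLR1 fl/fl;TBL1 fl/fl). The 12 mice labelled BATdKO also carried a tamoxifen-inducible Cre driven by the Ucp1 promoter (Ucp1CreERT2), which is active in brown adipocytes, and the controls labelled Cre- had no Cre. Each genotype was kept at 30°C for 4 days or at 8°C for 6 days after stepwise cooling (6 mice per group). The study's text gives a shorter time in the cold than the labels. Mice were raised at 22°C and the temperature protocol began 3 weeks after the last tamoxifen injection. Cold effects here compare 8°C with 30°C. No group stayed at 22°C, so that cooling, warming and the difference in days cannot be told apart. The labels give the age at injection as 5 years and the methods as 5 weeks, and the labels give the mice as female where a legend of the study gives its sequenced mice as male. Within each group the mice are numbered m1 to m6, and a shared number pairs none of them. The promoter limits Cre to cells with Ucp1 promoter activity, while bulk RNA holds all cells of the tissue. In bulk RNA, fewer cells of a type and less RNA per cell cannot be told apart.

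Total counts per library were 2738613 to 11527643, except for mouse m4 labelled Cre- at 30°C with 699703, where 3 counts equal 4.10 CPM (tag counts scaled to a common library total). Neither floxed gene was lower under the BATdKO label. Tbl1xr1 was higher in those libraries at 8°C (log2 fold change 0.92 ± 0.17 SE, adjusted p = 0.00348), as was Tbl1x (0.39 ± 0.10 SE, adjusted p = 0.0633), by edgeR's quasi-likelihood test. Where the floxed exons lie relative to the tag is not given in the sources used here, so that this check speaks neither for nor against the labels. Groups are therefore named by their labels. At 30°C both m6 mice stood apart from their group: Tbl1xr1 was at 38.6 CPM in m6 labelled Cre-, against 16.4 to 24.6 CPM in the other mice, and at 17.0 CPM in m6 labelled BATdKO, against 29.8 to 42.0 CPM. Each m6 mouse had a level inside the range of the opposite label. Counts of called genes that use the mice at 30°C are given with and without both m6 mice. That comparison was chosen after the values were seen, and the labels were kept.

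All 8 brown adipocyte markers were in the table, with Ucp1 between 28.9 and 548 CPM at 30°C and between 968 and 2076 CPM at 8°C. The 8 fibroblast and progenitor markers in the table (of 9 listed, without Fndc1) had a summed level of 90.4 to 137 CPM in Cre- mice at 8°C and of 60.1 to 88.3 CPM in BATdKO mice at 8°C, ranges that did not overlap. Those of the 8 endothelial markers (202 to 266 and 204 to 258 CPM), of the 8 macrophage markers (184 to 279 and 217 to 251 CPM), of the 8 mural markers (91.5 to 127 and 66.3 to 105 CPM) and of the 2 Schwann cell markers in the table (7.68 to 11.4 and 4.36 to 9.64 CPM) did. Summed skeletal muscle markers (10 genes) ran from 3.26 to 1431 CPM in Cre- mice at 8°C and from 0.782 to 144 CPM in BATdKO mice at 8°C. At 30°C they ran from 2.99 to 7776 CPM in Cre- mice, highest in m3 and then m1 (3353 CPM), and from 15.4 to 588 CPM in BATdKO mice. Of 6 mesothelial markers, Msln, Upk1b and Wt1 were not in the table. None of 7 lymphocyte markers was.

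Levels of the 33 genes covered a wide range. The mean over the 24 mice was highest for Sparc (255 CPM), which encodes a collagen-binding glycoprotein, followed by the adhesive glycoprotein fibronectin (Fn1, 193 CPM), the basement membrane collagen Col18a1 (184 CPM) and the proteoglycan decorin (Dcn, 109 CPM), and lowest for Lama2 (1.58 CPM). These are tag levels that need no length correction.

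At 8°C, 3 of the 33 matrix genes rose under the BATdKO label and none fell. The 3 were Svep1, Col4a2 and Col4a1. Svep1 encodes a large cell adhesion protein of the matrix, and Col4a1 and Col4a2 encode the chains that assemble into the common form of collagen IV. Of all tested genes, 1.82% were called at this adjusted p under 0.1, with 0.697% higher and 1.12% lower. In each of the 3 genes, all 6 BATdKO mice were above all 6 Cre- mice, which held for 1.07% of all tested genes.

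Svep1 was between 0.575 and 1.93 CPM (median 1.63) in Cre- mice at 8°C and between 6.98 and 11.5 CPM (median 8.26) in BATdKO mice at 8°C. No Cre- mouse came near the lowest BATdKO mouse, and the Cre- values rest on only 3 to 14 counts per library. The difference was 2.45 ± 0.35 on the log2 scale (SE, n = 6 each, adjusted p = 0.000173, edgeR), a 5.45-fold higher level. At 30°C Svep1 was at 3.04 to 14.1 CPM (median 6.22) under the Cre- label and at 5.41 to 17.1 CPM (median 13.0) under the BATdKO label. These ranges overlapped, with m6 the highest Cre- mouse and the lowest BATdKO mouse. The log2 fold change at 30°C was 0.64 ± 0.28 SE (adjusted p = 0.408, edgeR). The level in BATdKO mice at 8°C thus lay within the range of both groups at 30°C, and the Cre- mice at 8°C stood below all other groups. Since the study had named Svep1 from these libraries, its direction here is not independent evidence. Lrrn4, the mesothelial marker that could be tested, was also higher at 8°C (log2 fold change 3.65 ± 0.43 SE, adjusted p = 1.38e-05, edgeR). In BATdKO mice cold raised Lrrn4 (2.11 ± 0.36 SE, adjusted p = 0.000486, edgeR) but not Svep1 (-0.48 ± 0.28 SE). In Cre- mice Lrrn4 had a cold effect of -0.83 ± 0.55 SE and was not called. Mouse m6 of the BATdKO group at 8°C was the highest for Svep1 (11.5 CPM) and the lowest for Lrrn4 (3.91 CPM). Mouse m1 of that group was the highest for Lrrn4 (16.6 CPM) and came next after m6 for Svep1 (9.15 CPM). At 30°C, m6 labelled Cre- was the highest of its group for Svep1 (14.1 CPM) and for Lrrn4 (2.37 CPM). There m6 labelled BATdKO was the lowest of its group for both (5.41 and 0.451 CPM). The summed level of the 3 mesothelial markers in the table was 1.39 to 2.81 CPM in Cre- mice and 5.28 to 17.4 CPM in BATdKO mice at 8°C. The part of mesothelial RNA in the Svep1 difference was not tested.

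Col4a2 was between 38.1 and 51.9 CPM (median 44.8) in Cre- mice and between 59.6 and 93.7 CPM (median 68.2) in BATdKO mice at 8°C. Col4a1 was between 46.3 and 71.7 CPM (median 60.1) and between 80.4 and 115 CPM (median 82.8). Both groups were separate in both genes, with BATdKO m1 the highest mouse of each. The log2 fold changes were 0.67 ± 0.15 SE for Col4a2 (adjusted p = 0.0243) and 0.57 ± 0.16 SE for Col4a1 (adjusted p = 0.0844, edgeR). The summed brown adipocyte markers moved with collagen IV in some mice at 8°C: Cre- m2 was lowest of its group in both sums (2709 and 84.5 CPM), Cre- m3 highest in both (5040.5 and 117 CPM) and BATdKO m1 highest in both (5944 and 209 CPM). Between genotypes these markers overlapped (2709 to 5040.5 and 3079 to 5944 CPM), and 0 of 8 were called by edgeR (5 higher, 3 lower). Endothelial and mural cells also make collagen IV. Of 8 endothelial and 7 mural markers tested, 0 were called at 8°C, and the mural ones had negative log2 fold changes (median -0.44). The part of any of these cell types in the collagen IV difference was not tested. Leaving out single mice changed neither the call of Svep1 nor that of Col4a2 (highest adjusted p 0.000870 and 0.0684). For Col4a1 the call was lost in 11 of 24 such fits, without any 1 of the mice at 8°C other than Cre- m3 (highest adjusted p 0.187), and with robust dispersion estimates.

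Col4a1 and Col4a2 lie head to head on chromosome 8 of GRCm38, Col4a1 from 11198423 to 11312826 on the minus strand and Col4a2 from 11312805 to 11449287 on the plus strand. Their first exons overlap by 22 bases, at chr8:11312805-11312826, shown because both genes moved together. Svep1 lies on chromosome 4 from 58042442 to 58206859 on the minus strand, and the 250 bases before the start of its coding transcript (chr4:58206597-58206846) are shown in the direction of transcription. They overlap the first exons of noncoding Svep1 transcripts and of the antisense gene Gm26889. Sequences are from RefSeq for GRCm38.p6, and capitals mark matches to the motifs searched, on both strands. These were the TATA box (TATAAA), the CCAAT box, the GC box (GGGCGG), the nuclear receptor element (AGGTCA) and the cyclic AMP element (TGACGTCA).
Col4a1 and Col4a2 overlap: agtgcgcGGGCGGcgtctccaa
Svep1 upstream: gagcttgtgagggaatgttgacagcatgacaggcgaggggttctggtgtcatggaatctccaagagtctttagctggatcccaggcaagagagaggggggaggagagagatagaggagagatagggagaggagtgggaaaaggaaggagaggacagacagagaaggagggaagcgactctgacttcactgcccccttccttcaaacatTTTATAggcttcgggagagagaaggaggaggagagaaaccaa
The overlap holds the GC box letters GGGCGG, and the Svep1 stretch holds the TATA box letters on the opposite strand (TTTATA), beginning 42 bases before the start. RefSeq windows were at hand for 24 of the 33 genes. Within 250 bases before the start, TATAAA was present in 12.4% of all 32851 windows and in windows of 4 of the 24 genes (Svep1, Postn, Col3a1 and Col13a1). GGGCGG was present in 32.7% of all windows and in windows of 13 of the 24 genes, and CCAAT in 33.8% and of 8 genes. AGGTCA was in 14% of all windows and in a window of 1 gene (another start of Postn than the one printed further on), and TGACGTCA in 1.55% and in none of the 24. These matches describe letters only.

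**Figure D1:**
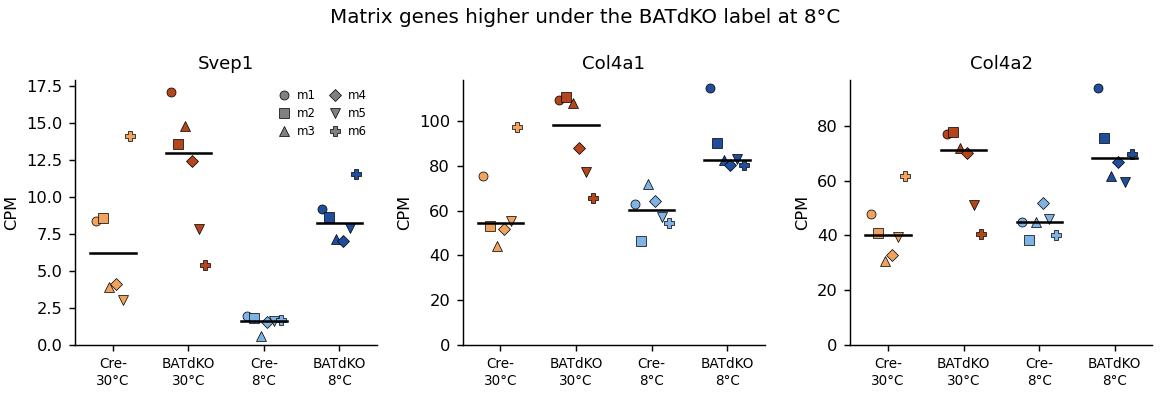
Levels of Svep1, Col4a1 and Col4a2 in CPM (linear axis from 0) in the 24 mice, by labelled genotype and temperature, with a symbol for each of m1 to m6 and a bar at the group median. At 8°C the BATdKO mice lie above all Cre- mice in each gene, and at 30°C m6 is the highest Cre- mouse and the lowest BATdKO mouse.

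The fibrillar collagens lay on the other side at 8°C, without a call. All 7 (Col1a1, Col1a2, Col3a1, Col5a1, Col5a2, Col5a3 and Col27a1) had negative log2 fold changes, from -0.55 to -0.25 (median -0.38), as had the 3 chains of collagen VI, Col6a1, Col6a2 and Col6a3 (-0.59 to -0.31). The summed level of the fibrillar collagens was 136 to 245 CPM (median 159.5) in Cre- mice and 121 to 141 CPM (median 134) in BATdKO mice at 8°C. These ranges overlapped, with the BATdKO mice at or below the lower part of the Cre- range. The summed fibroblast and progenitor markers, given above, were lower in these same mice, although 0 of the 8 were called by edgeR (6 lower, 2 higher). Their part in the collagen values was not tested. Over all 33 genes the median log2 fold change was -0.24, with 10 genes higher and 23 lower, against a median of -6.08e-05 over all tested genes. The tilt was not limited to 8°C. At 30°C 6 of the 7 fibrillar collagens and the 3 chains of collagen VI were also negative. There 11 of the 33 genes were higher and 22 lower (median -0.10, against -0.00986 over all tested genes).

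Among genes lower under the BATdKO label at 8°C, the smallest unadjusted p belonged to Col27a1, Col5a3 and Sparc. Col27a1 was at 38.2 to 47.6 CPM (median 40.4) in Cre- mice and at 26.8 to 39.9 CPM (median 33.2) in BATdKO mice (log2 fold change -0.36 ± 0.12 SE, adjusted p = 0.166, edgeR). Only BATdKO m6 reached into the Cre- range. Col5a3, a chain of the collagen V group that regulates fibril assembly, was at 28.7 to 40.9 CPM (median 30.3) against 19.2 to 30.0 CPM (median 25.5), with a log2 fold change of -0.38 ± 0.14 SE (adjusted p = 0.273). Sparc was at 228 to 308 CPM (median 282) against 159.6 to 230.03 CPM (median 200.1), with a log2 fold change of -0.42 ± 0.16 SE (adjusted p = 0.308). The groups overlapped in each of these 3 genes, and none passed the test across all 4 groups. In a fit with the 8°C mice alone, Sparc, Col27a1, Col5a3 and Col6a3 were called lower in addition to the 3 higher genes (7 called, adjusted p 0.00801 to 0.0677 for the added genes), against 4.01% of all genes in that fit.

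**Figure D2:**
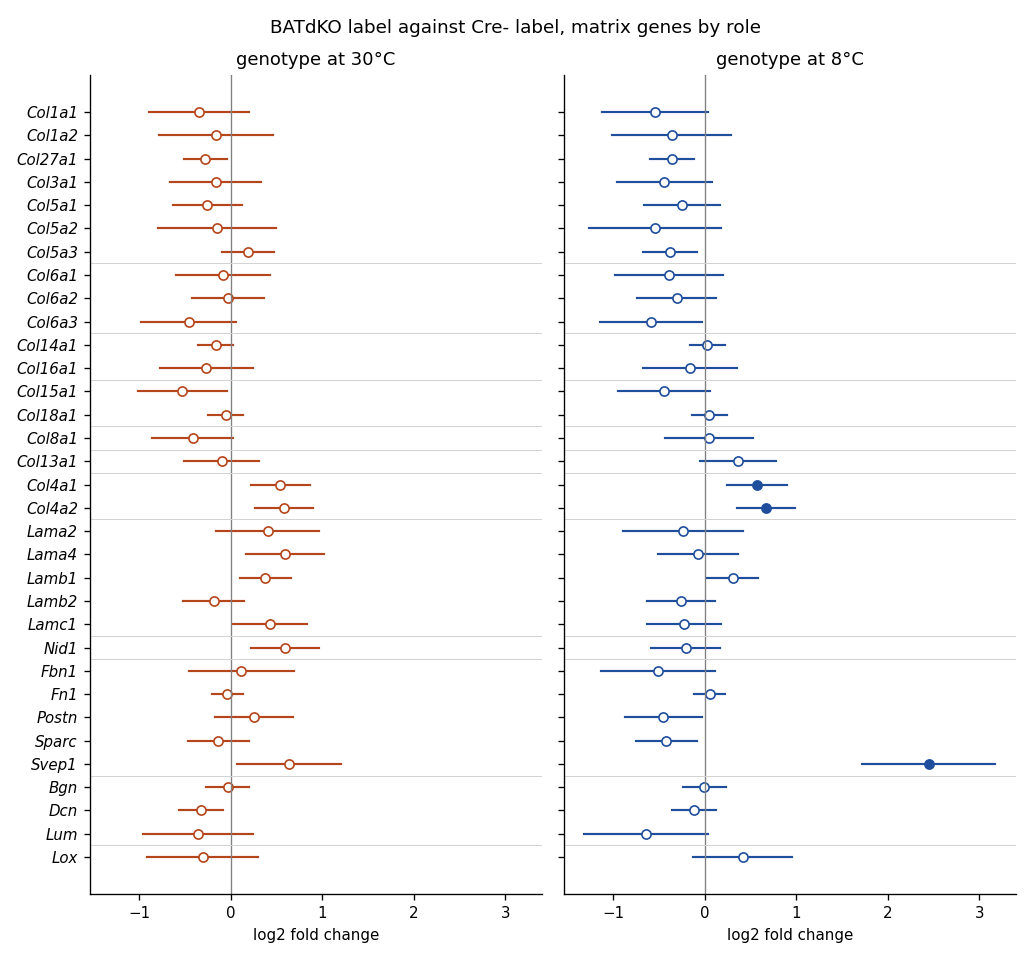
Log2 fold changes (BATdKO label over Cre- label) of the 33 matrix genes at 30°C and at 8°C from the edgeR fit, with 95% intervals, grouped by role, with filled points for adjusted p under 0.1. Svep1, Col4a1 and Col4a2 are filled at 8°C, no point is filled at 30°C, and the 7 fibrillar collagens at the top lie left of 0 at 8°C.

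Between the labelled genotypes in the warm (30°C), edgeR called 0 of the 33 matrix genes, against 0% of all tested genes. At an unadjusted p under 0.05 there were 10 members, against 10.4% of all tested genes, and DESeq2 called 2 (Col4a1 and Col4a2), against 0.807% of all genes. On the higher side were 7 of the 10. Nid1, Lama4, Lamb1 and Lamc1, which encode nidogen and laminin chains, were among these with Col4a1, Col4a2 and Svep1, and Dcn, Col27a1 and Col15a1 were the 3 on the lower side.

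Col4a2 was at 30.7 to 61.7 CPM (median 40.1) under the Cre- label and at 40.6 to 77.6 CPM (median 71.0) under the BATdKO label at 30°C, a log2 fold change of 0.58 ± 0.16 SE (adjusted p = 0.153). Col4a1 was at 44.1 to 97.4 CPM (median 54.4) against 65.8 to 111 CPM (median 98.1), a log2 fold change of 0.54 ± 0.16 SE (adjusted p = 0.193). In both genes m6 was the highest Cre- mouse and the lowest BATdKO mouse, and no other mice of the 2 groups overlapped. The summed brown adipocyte markers had the same order, with Cre- m6 highest of its group (4320 CPM, group median 1492) and BATdKO m6 lowest of its group (1246 CPM, group median 3187), as had Ucp1 (548 and 84.7 CPM). The part of brown adipocyte RNA in the collagen IV difference was not tested. Nid1, whose protein links laminins to collagen IV, was at 10.3 to 21.9 CPM (median 13.8) against 16.6 to 33.6 CPM (median 22.0), a log2 fold change of 0.59 ± 0.18 SE (adjusted p = 0.219, edgeR). Here m6 labelled BATdKO was the highest mouse of its group.

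On the lower side, Dcn was at 99.0 to 191 CPM (median 115) under the Cre- label and at 91.6 to 114 CPM (median 104) under the BATdKO label (log2 fold change -0.33 ± 0.12 SE, adjusted p = 0.313). Decorin binds collagen fibrils and sets their spacing. Col27a1 was at 31.4 to 52.8 CPM (median 46.9) against 28.1 to 41.5 CPM (median 35.7), a difference of -0.28 ± 0.12 SE on the log2 scale (adjusted p = 0.375). Col15a1, which encodes a collagen next to basement membranes, was at 3.31 to 8.50 CPM (median 4.45) against 2.20 to 5.75 CPM (median 3.71), or -0.53 ± 0.23 SE (adjusted p = 0.420, edgeR). The groups overlapped in each of these.

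Without both m6 mice, 4 members were called at 30°C, all higher under the BATdKO label, against 4.00% of all genes called in that fit. They were Col4a2 (log2 fold change 0.83 ± 0.13 SE, adjusted p = 0.000512), Col4a1 (0.80 ± 0.14 SE, adjusted p = 0.00134), Svep1 (1.10 ± 0.24 SE, adjusted p = 0.00999) and Lamb1 (0.58 ± 0.12 SE, adjusted p = 0.00999, edgeR). Without m6 labelled Cre- alone there were 5 calls, with Dcn as the added gene, against 2.95% of all genes. Without m6 labelled BATdKO alone there was 1, Col4a2, against 0.328% of all genes. In Col4a1, Col4a2, Svep1 and Lamb1 both m6 mice lay at the end of their group that is nearer to the other label. Leaving them out thus widens the difference by construction. At 8°C the same fit called Svep1, Col4a1 and Col4a2 again (3 members, against 2.59% of all genes).

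Cold lowered 3 matrix genes and raised 1 in Cre- mice. Svep1, Lamb2 and Col5a1 fell and Postn rose, which is 4 of 33 (12.1%), near the 9.15% of all tested genes. By direction, 3.59% of all tested genes were called lower and 5.57% higher. Svep1 and Lamb2 were the 2 genes with all cold mice below all warm mice, as were 0.745% of all genes. Lamb2 encodes the laminin beta chain of vessel walls and neuromuscular junctions, Col5a1 a collagen V chain, and Postn the secreted protein periostin, which is made in remodelling connective tissue.

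Svep1 in Cre- mice fell from the values at 30°C given above to those at 8°C by a log2 fold change of -2.29 ± 0.35 SE (adjusted p = 8.62e-05, edgeR), and by -1.97 ± 0.29 SE without both m6 mice. Lamb2 in Cre- mice was at 13.2 to 21.5 CPM (median 17.0) at 30°C and at 5.82 to 11.9 CPM (median 8.90) at 8°C, a log2 fold change of -0.95 ± 0.17 SE (adjusted p = 0.000480). In BATdKO mice it was at 10.6 to 19.8 CPM (median 15.1) and at 6.06 to 10.02 CPM (median 7.24), a log2 fold change of -1.02 ± 0.18 SE (adjusted p = 0.000512, edgeR). Lamb2 was the gene among the 33 called under both labels, and its cold effects differed by -0.07 on the log2 scale, with a 95% interval from -0.57 to 0.43. In Cre- mice at 30°C, m1 and m3 were the highest for Lamb2 (21.5 and 20.0 CPM) and in the summed muscle markers. In BATdKO mice at 30°C, m6 was the highest for Lamb2 and m2 in the muscle markers. The part of muscle RNA in the Lamb2 values was not tested.

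Postn in Cre- mice was at 5.95 to 11.6 CPM (median 7.14) at 30°C and at 11.3 to 15.1 CPM (median 13.4) at 8°C, a log2 fold change of 0.69 ± 0.20 SE (adjusted p = 0.0421). Only Cre- m2 at 30°C reached into the cold range. In BATdKO mice Postn was at 6.78 to 16.7 CPM (median 9.18) and at 6.98 to 16.1 CPM (median 9.58), a log2 fold change of -0.02 ± 0.21 SE (adjusted p = 0.993, edgeR). Col5a1 in Cre- mice was at 5.80 to 12.8 CPM (median 8.38) at 30°C and at 4.72 to 7.19 CPM (median 5.66) at 8°C, a log2 fold change of -0.58 ± 0.19 SE (adjusted p = 0.0691). In BATdKO mice it had a like value, -0.57 ± 0.20 SE, with adjusted p = 0.106.

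Postn lost its call without Cre- m3 at 30°C (adjusted p = 0.113), and Col5a1 lost it without Cre- m1 or m3 at 30°C or Cre- m3, m4, m5 or m6 at 8°C (highest adjusted p 0.261) and in a fit with the Cre- mice alone. Without both m6 mice 6 members were called in Cre- mice, with Dcn and Col6a2 as the added genes, both lower, against 13.2% of all genes. Among genes higher in the cold, Lamc1, a laminin gamma chain, came next after Postn by p, at 6.08 to 14.5 CPM (median 8.08) and 9.20 to 15.2 CPM (median 13.0), a log2 fold change of 0.41 ± 0.20 SE (adjusted p = 0.249). Next was Lox at 2.07 to 5.47 CPM (median 3.46) and 2.84 to 6.06 CPM (median 4.66), with 0.48 ± 0.28 SE (adjusted p = 0.371, edgeR). Both ranges overlapped and neither gene passed the test.

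The bases before the RefSeq start of Postn on chromosome 3 (chr3:54360857-54361106, plus strand), shown because Postn was the member called higher in Cre- mice, hold the TATA box letters TATAAA in capitals, beginning 26 bases before the start.
Postn upstream: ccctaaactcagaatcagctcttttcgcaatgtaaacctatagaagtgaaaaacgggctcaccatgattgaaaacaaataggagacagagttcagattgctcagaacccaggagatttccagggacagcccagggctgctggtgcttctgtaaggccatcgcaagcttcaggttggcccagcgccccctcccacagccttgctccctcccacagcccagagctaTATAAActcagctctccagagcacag

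In BATdKO mice, cold lowered 7 matrix genes and raised 1, which is 8 of 33 against 7.07% of all tested genes. On the lower side the 7 members stand against 3.31% of all tested genes. The 7 were Lamb2, Col5a3, Col6a2, Nid1, Lama4, Col6a1 and Col3a1, some from each of the basement membrane, collagen VI and the fibrillar group. Of the collagen IV and laminin genes, Col4a1 (-0.08 ± 0.16 SE), Col4a2 (0.13 ± 0.15 SE) and Lamb1 (0.01 ± 0.13 SE) were not called. Lamc1 (-0.24 ± 0.20 SE) and Lama2 (-0.76 ± 0.30 SE) were not called either. Lox, the lysyl oxidase that crosslinks collagen and elastin, was the gene that rose. The median log2 fold change over the 33 genes was -0.38 in BATdKO mice and -0.11 in Cre- mice, against -0.00261 and -0.02 over all tested genes.

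Lox in BATdKO mice was at 1.36 to 5.58 CPM (median 2.53) at 30°C and at 3.91 to 11.3 CPM (median 5.40) at 8°C, a log2 fold change of 1.20 ± 0.28 SE (adjusted p = 0.0114). The highest mouse of each group was its m1, and these are separate animals. The warm m1 alone, at 5.58 CPM, kept the ranges from separating. The counts behind these values were 8 to 86 per library. Col6a2 was at 6.28 to 13.1 CPM (median 10.3) and 3.49 to 8.28 CPM (median 6.04), a log2 fold change of -0.69 ± 0.21 SE (adjusted p = 0.0540). Col6a1 was at 2.78 to 8.37 CPM (median 4.99) and 1.74 to 4.33 CPM (median 2.62), with -0.81 ± 0.28 SE (adjusted p = 0.0971, edgeR). Both collagen VI chains were low in counts and overlapped between temperatures.

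Col5a3 in BATdKO mice was at 24.9 to 50.5 CPM (median 34.9) at 30°C and at 19.2 to 30.0 CPM (median 25.5) at 8°C, with a log2 fold change of -0.54 ± 0.14 SE (adjusted p = 0.0244). In Cre- mice it was 0.03 ± 0.14 SE. Col3a1, the collagen III chain of loose connective tissue, was at 26.9 to 50.4 CPM (median 39.3) and 16.4 to 26.0 CPM (median 23.7), with -0.73 ± 0.25 SE (adjusted p = 0.0990, edgeR). All cold BATdKO mice were below all warm ones in Col3a1 and Lamb2, as in 1.24% of all tested genes. The summed fibrillar collagens of BATdKO mice were at 137 to 252 CPM (median 196) at 30°C, and the fibroblast and progenitor markers at 66.4 to 159 CPM (median 108) at 30°C and 60.1 to 88.3 CPM (median 75.0) at 8°C. Of these 8 markers 1 was called for cold in BATdKO mice, Pdgfra (-0.84 ± 0.28 SE, adjusted p = 0.0841), with 6 lower and 2 higher in all (Ly6a 0.24, Dpp4 0.00159). The part of these cells in the collagen values was not tested.

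Nid1 in BATdKO mice was at 16.6 to 33.6 CPM (median 22.0) at 30°C and at 9.59 to 20.04 CPM (median 14.9) at 8°C, a log2 fold change of -0.60 ± 0.18 SE (adjusted p = 0.0639). Lama4, the laminin alpha chain of adipocyte and capillary basement membranes, was at 19.6 to 42.8 CPM (median 35.4) and 18.0 to 30.9 CPM (median 21.0), with -0.63 ± 0.21 SE (adjusted p = 0.0824, edgeR). In both genes the warm BATdKO group had the highest median of the 4 groups, and the cold BATdKO ranges overlapped those of both Cre- groups, where Nid1 was at 10.3 to 21.9 and 12.3 to 19.4 CPM and Lama4 at 9.46 to 34.2 and 15.7 to 27.3 CPM. Of the genes not called, Col13a1, a collagen of cell membranes, had the smallest p on the higher side (0.34 ± 0.20 SE, adjusted p = 0.405) at 2.96 to 4.12 CPM (median 3.25) and 3.74 to 6.53 CPM (median 4.51). Col16a1, at 1.35 to 1.71 CPM (median 1.63) and 1.60 to 2.16 CPM (median 1.80), followed with 0.25 ± 0.26 SE (adjusted p = 0.687).

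Lamb2, Col5a3 and Lox kept their calls in BATdKO mice in all 24 fits without a mouse (highest adjusted p 0.0792 for Col5a3). Calls were lost for Col3a1 in 15 of these fits (highest adjusted p 0.200), for Col6a1 in 14 (0.217), for Lama4 in 8 (0.174), for Nid1 in 5 (0.166) and for Col6a2 in 3 (0.120). The fit without m6 labelled BATdKO at 8°C was among these for each of the 5 genes. Without both m6 mice at 30°C 5 members were called, against 6.13% of all genes. These were Lamb2, Lox, Col5a3, Col3a1 and, in addition, Col5a1 (-0.61 ± 0.20 SE, adjusted p = 0.0840), while Nid1, Lama4, Col6a1 and Col6a2 lost their calls (adjusted p 0.167, 0.140, 0.187 and 0.1002).

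**Figure D3:**
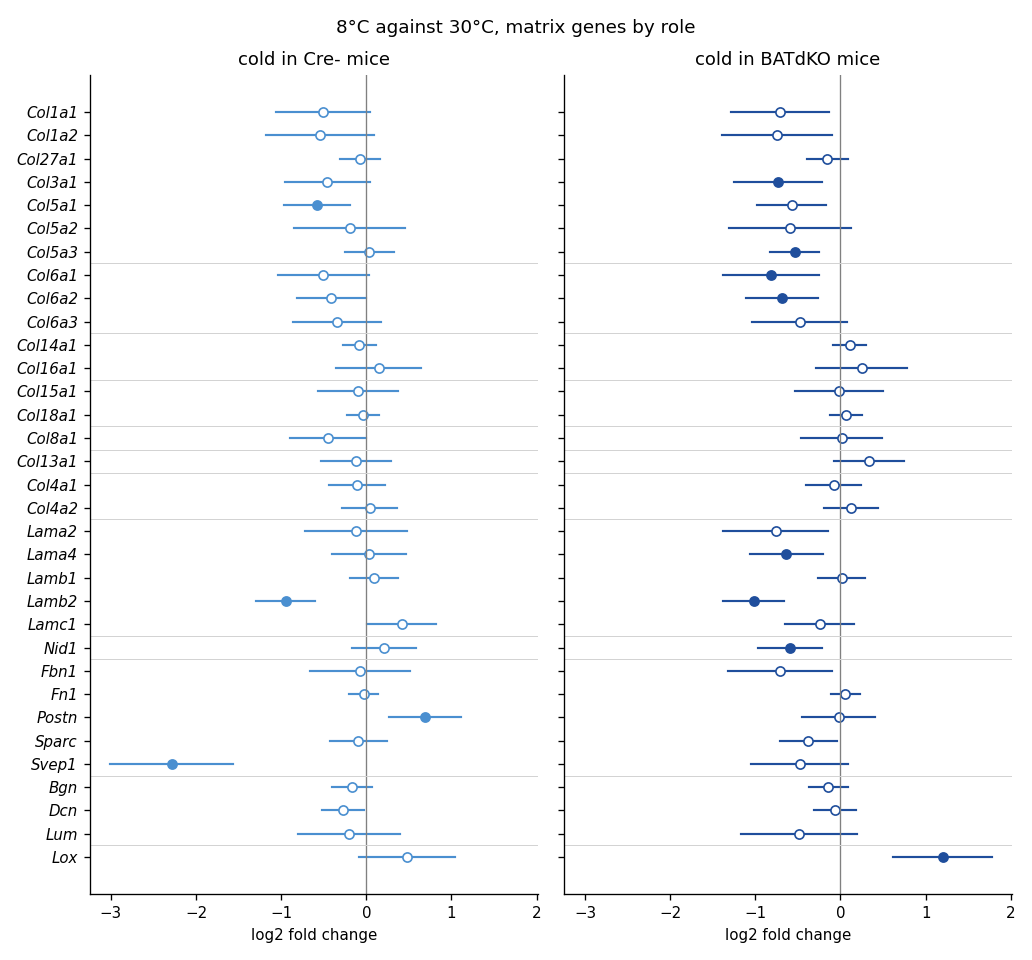
Log2 fold changes (8°C over 30°C) of the 33 matrix genes in Cre- and in BATdKO mice from the edgeR fit, on a shared axis, with 95% intervals, grouped by role, with filled points for adjusted p under 0.1. Svep1 lies farthest left in Cre- mice at -2.29, Lamb2 is filled in both panels, and Lox lies farthest right in BATdKO mice at 1.20.

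**Figure D4:**
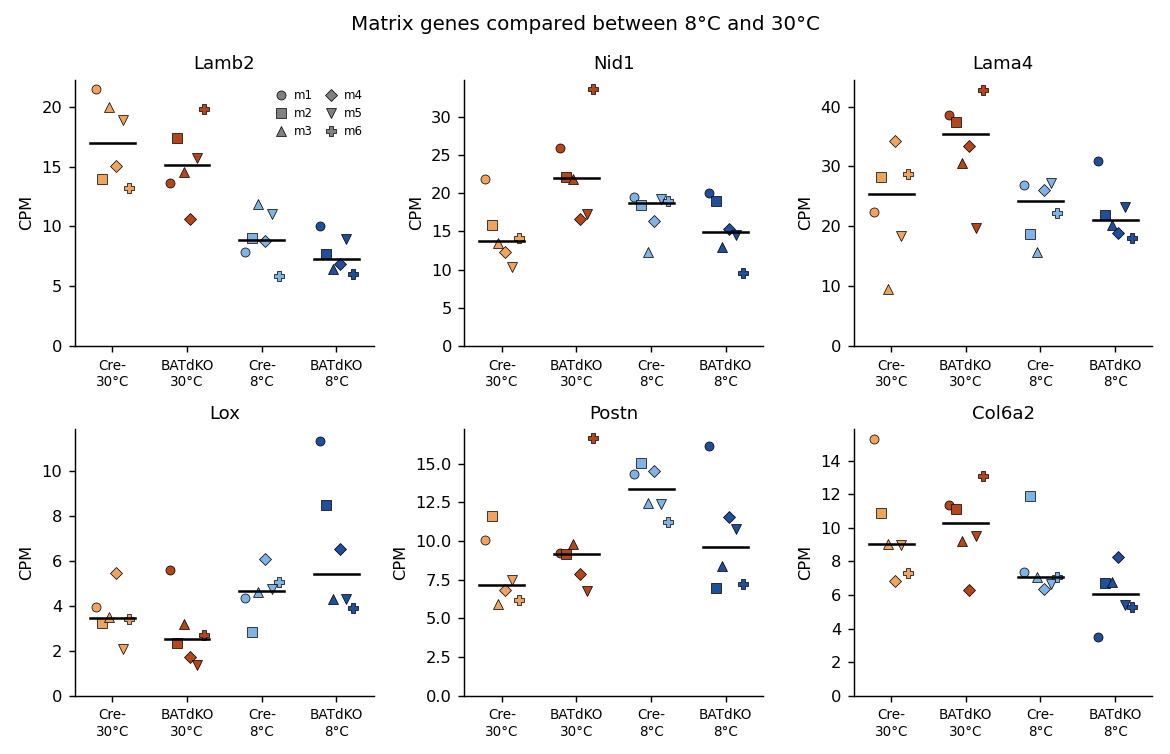
Levels of Lamb2, Nid1, Lama4, Lox, Postn and Col6a2 in CPM (linear axes from 0) in the 24 mice, with a symbol for each of m1 to m6 and a bar at the group median. Lamb2 is lower at 8°C under both labels, and Nid1 and Lama4 are highest at 30°C under the BATdKO label.

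Whether the genotype effect depended on temperature was tested by the interaction, which is also the difference between the cold effects of both labels. The comparisons share mice: each genotype comparison uses the same groups as the cold comparisons. By edgeR 0 of 33 members passed, against 0.0961% of all tested genes. At an unadjusted p under 0.05 there were 6 members, against 8.05% of all genes, and DESeq2 called 1 (Svep1, adjusted p = 0.0260), against 0.448% of all genes. Without both m6 mice there were 0 calls among members, against 0.352% of all genes.

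The interaction of Svep1 was 1.81 ± 0.45 SE (95% interval 0.88 to 2.74, unadjusted p = 0.000472, adjusted p = 0.167, edgeR). Its cold effect was -2.29 in Cre- mice and -0.48 in BATdKO mice. Leaving out Cre- m3 or m5 at 30°C brought its adjusted p to 0.0988 and 0.0923, and without both m6 mice the interaction was 1.34 ± 0.37 SE (adjusted p = 0.164). The other 5 members at that unadjusted p all had negative interactions: Nid1 (-0.80 ± 0.26 SE, 95% interval -1.34 to -0.27), Col5a3 (-0.57 ± 0.20 SE), Postn (-0.71 ± 0.29 SE), Lamc1 (-0.66 ± 0.28 SE) and Lama4 (-0.67 ± 0.30 SE), with adjusted p from 0.371 to 0.565. On the positive side Lox (0.72 ± 0.40 SE, adjusted p = 0.657) and Col13a1 (0.46 ± 0.28 SE, adjusted p = 0.699) came next after Svep1. All 5 laminin genes tested had negative interactions (median -0.64), and none was called. For collagen IV the interactions were 0.03 (95% interval -0.43 to 0.49) for Col4a1 and 0.09 (95% interval -0.36 to 0.54) for Col4a2.

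**Figure D5:**
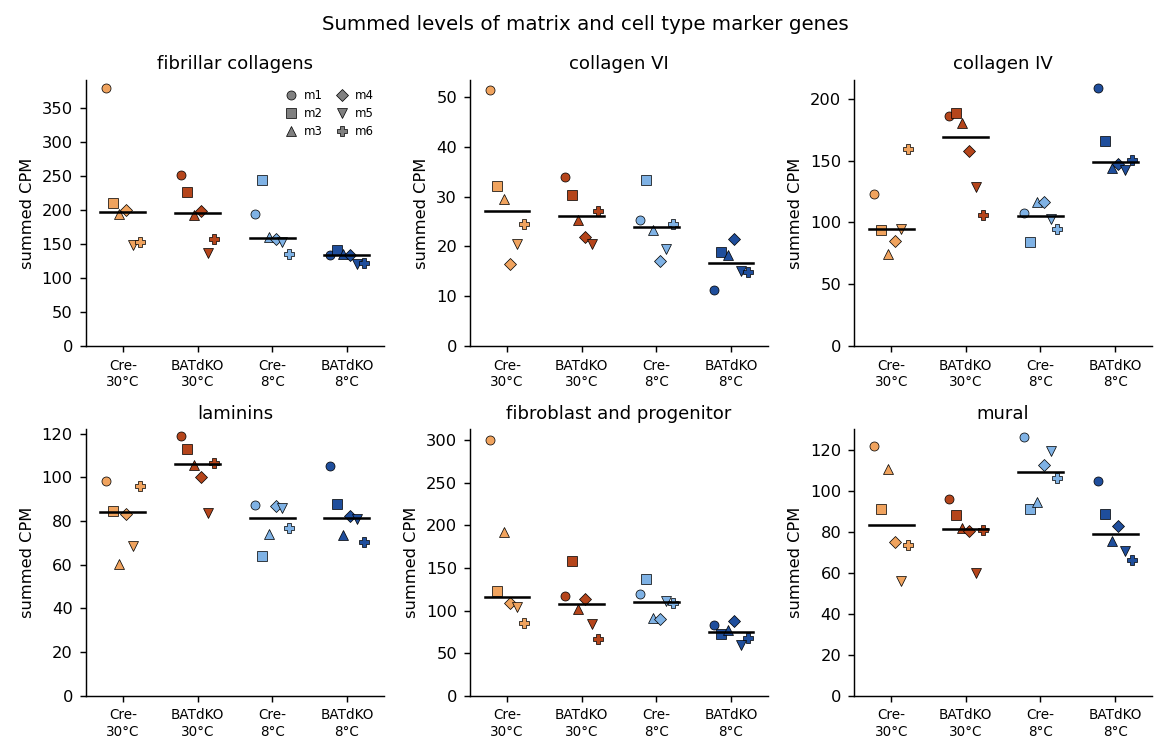
Summed CPM (linear axes from 0) of the 7 fibrillar collagens, the 3 collagen VI genes, the 2 collagen IV genes, the 5 laminins and the fibroblast and mural marker lists in the 24 mice, with a bar at the group median. Collagen IV is higher in all BATdKO mice at 8°C, from 143 to 209 CPM against 84.5 to 117 CPM, and Cre- m1 at 30°C is high in the fibrillar collagens (379 CPM) and in the fibroblast markers (301 CPM).

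The remaining members showed no call in any comparison of the edgeR fit across all 4 groups. Fn1 had the smallest spread, with log2 fold changes from -0.04 to 0.06 in the genotype and cold comparisons, and Col18a1 and Col14a1 lay between -0.16 and 0.11. Biglycan (Bgn) and lumican (Lum), small proteoglycans that bind collagen, were negative throughout, from -0.17 to -0.01 for Bgn and from -0.64 to -0.20 for Lum. Fibrillin (Fbn1), the core of elastic microfibrils, and Lama2, the laminin alpha chain of muscle and nerve, had their lowest values in the cold comparison of BATdKO mice (-0.70 ± 0.30 SE and -0.76 ± 0.30 SE, adjusted p = 0.204 and 0.170), as had Col1a1 and Col1a2 (-0.71 ± 0.28 SE and -0.74 ± 0.31 SE, adjusted p = 0.170 and 0.203, edgeR). In an edgeR fit with the BATdKO mice alone, Col1a1, Col1a2, Lama2 and Fbn1 were called lower in the cold (adjusted p = 0.0120, 0.0465, 0.0845 and 0.0890). That fit also called Col5a1 and Sparc lower (adjusted p = 0.0741 and 0.0880, edgeR), while Col6a1 lost its call. The share of all genes called in that fit is not given here, so these calls are not read as particular to the matrix genes. Col5a2 and Col8a1 were not called, with log2 fold changes from -0.59 to -0.15 and from -0.45 to 0.05.

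The enzymes and receptors that act on these proteins were taken from lists of known genes. The counts of called genes stand against 1.82% of all tested genes for genotype at 8°C, 9.15% for cold in Cre- mice and 7.07% for cold in BATdKO mice. Of 21 tested genes of collagen processing and crosslinking, Plod1, a lysyl hydroxylase, was called at 8°C, higher under the BATdKO label (0.31 ± 0.09 SE, adjusted p = 0.0844). Cold raised 2 and lowered 2 in Cre- mice and raised 1 in BATdKO mice. Loxl1, a lysyl oxidase of elastic fibres, rose under both labels (1.22 ± 0.25 SE and 1.78 ± 0.27 SE, adjusted p = 0.00239 and 0.000144), and in Cre- mice the prolyl hydroxylase P4ha1 rose (0.95 ± 0.23 SE, adjusted p = 0.0101) while the procollagen protease Adamts2 (-0.95 ± 0.23 SE, adjusted p = 0.0102) and the transglutaminase Tgm2 fell (-0.24 ± 0.07 SE, adjusted p = 0.0359). Of 22 proteases and inhibitors, 0 were called between genotypes by edgeR. In the cold the metalloprotease Adam12 rose (2.09 ± 0.24 SE in Cre- mice, adjusted p = 1.39e-06, and 1.04 ± 0.22 SE in BATdKO mice, adjusted p = 0.00539) and the inhibitor Timp4 fell (-1.35 ± 0.19 SE, adjusted p = 3.00e-05, and -1.15 ± 0.19 SE, adjusted p = 0.000439, edgeR). Cre- mice also had Adamts9 higher (0.98) and Serpine2 lower (-0.55) in the cold.

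Of 21 integrins and matrix receptors, 2 rose in the cold in Cre- mice, dystroglycan (Dag1, 0.58 ± 0.15 SE, adjusted p = 0.0161) and the fatty acid and thrombospondin receptor Cd36 (0.51 ± 0.17 SE, adjusted p = 0.0832), and Dag1 also in BATdKO mice (0.52 ± 0.15 SE, adjusted p = 0.0405). Of 20 genes of TGF-beta and matricellular signals, the signal transducer Smad2 was lower under the BATdKO label at 8°C (-0.44 ± 0.12 SE, adjusted p = 0.0948) and fell in the cold in BATdKO mice (-0.40 ± 0.12 SE, adjusted p = 0.0712). In Cre- mice Ltbp4 rose (0.50) and Tgfbr3 fell (-0.56). Of 21 other laminins, glycoproteins and proteoglycans, Lamb3, a laminin beta chain of epithelia, had a higher level in BATdKO than in Cre- mice at 8°C (1.38 ± 0.36 SE, adjusted p = 0.0572), and Prelp (-0.86 ± 0.14 SE, adjusted p = 0.00105) and asporin (Aspn, -0.997 ± 0.23 SE, adjusted p = 0.0280), both small leucine-rich proteoglycans, were lower. In BATdKO mice cold raised Lamb3 (1.54) and perlecan (Hspg2, 0.36) and lowered Dpt (-1.04), Ecm2 (-0.92) and Prelp (-0.56), all past the edgeR threshold. By edgeR, 0 genes of these 5 lists were called at 30°C between the labels or for the interaction with all mice.

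Without both m6 mice, the calls named from these lists remained, except those of Smad2 (adjusted p = 0.108) and Hspg2 (adjusted p = 0.211) for cold in BATdKO mice. In Cre- mice cold then also lowered 1 gene each of the proteases (Mmp23), the TGF-beta list (Inhba) and the other glycoproteins (Vcan). At 30°C that fit called 2 of 21 genes of collagen processing (Adamts2, Serpinh1), 2 of 22 proteases (Adam12, Mmp23), 1 of 20 receptors (Cd36), 3 of 20 TGF-beta genes (Ski, Skil, Tgfb2) and 1 of 21 other glycoproteins (Eln), against the 4.00% of all genes given above. For the interaction it called Adam12. These genes were named after their values were seen.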

How the data were processed

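The deposited values are raw counts per gene. To make them, the authors used BBDuk for trimming, STAR for alignment to the GRCm38 build and Rsubread for counting. The annotation release, the strand setting and the filter on low genes are not given in the sources used here, and the mice the study removed as outliers are not named, so all 24 libraries were used. The test was edgeR 4.0.16 (limma 3.58.1, R 4.3.3): TMM library sizes, filterByExpr on the 4 groups (12485 of 12615 genes kept), one quasi-likelihood model with a mean per group, and Benjamini-Hochberg adjustment over all tested genes with the study's threshold of 0.1. CPM use the TMM library sizes. SE was derived from the fold change and its F statistic. Alternatives were DESeq2 1.42.0, RLE sizes, no filter, a minimum mean count of 10, robust dispersion, only the groups compared, and each mouse left out in turn. The code was tested on simulated data.

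Named with full values were members called in a comparison and the 3 with the smallest p in each direction, and of each list up to 3 called genes per direction. Members and lists were chosen with earlier results of these data known. Symbols and positions are from GENCODE vM21. Col3a1 shares exon sequence with another gene on its own strand and 10 members, with Col4a1, Col4a2, Svep1, Nid1 and Lox among them, with one on the other strand, so reads of these may be mixed. Within groups, the correlation of log2 CPM between libraries was 0.905 to 0.988, and no pair was identical. That the mice of a group are separate animals is given by the labels. Intervals of fold changes come from the fitted model and include the spread between mice. Floors cover counting error only.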

Additional observations from a re-analysis of the deposited data

Results flagged for a closer look

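In 10 of the 132 combinations of a matrix gene and a group of 6 mice, a single mouse lay far from the other 5 by Dixon's ratio at its 95% critical value, a rule that chance meets in about 1 of 20 groups. Mouse m2 labelled Cre- at 8°C was the high one for Col6a2 (11.9 CPM, next 7.39), Dcn (129 CPM, next 107) and Col5a2 (6.69 CPM, next 3.86). Mouse m1 labelled BATdKO at 8°C was high for Col4a1 (115 CPM, next 90.5) and Col13a1 (6.53 CPM, next 4.71), m3 of that group for Col5a1 (5.70 CPM, next 4.72) and m4 for Col5a2 (3.90 CPM, next 2.36). Mouse m1 labelled Cre- at 30°C was high for Col1a2 (124 CPM, next 51.2). Mouse m6 labelled BATdKO at 30°C was high for Postn (16.7 CPM, next 9.83). Mouse m3 labelled Cre- at 8°C was low for Svep1 (0.575 CPM, next 1.51), from 3 counts. None of these mice was left out of the values in the report.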

How the results depend on the processing

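No paired analysis was possible because the mouse numbers name mice within a group and pair none between groups. Counts of called matrix genes moved in these fits. With only the groups compared, 7 genes were called between genotypes at 8°C, against 4.01% of all genes in that fit. For cold in BATdKO mice such a fit called 13. The share of all genes called in it is not given here, so this count is not read as a result about the matrix genes. With DESeq2, 2 were called between genotypes at 30°C and 1 for the interaction. Without both m6 mice at 30°C, chosen after the data were seen, 4 were called at 30°C and 5 for cold in BATdKO mice. Leaving out single mice gave 2 to 4 calls between genotypes at 8°C and 0 to 5 at 30°C, where 5 were called without Cre- m6, 1 without BATdKO m6 and 0 in the other fits. It gave 2 (without Cre- m3 at 30°C) to 8 (without Cre- m2 at 8°C) for cold in Cre- mice, 3 (without BATdKO m6 at 8°C) to 11 (without Cre- m1 at 30°C) for cold in BATdKO mice, and 0 to 1 for the interaction. The number of all genes called moved as well, for genotype at 8°C from 138 (without BATdKO m5 at 8°C) to 276 (without BATdKO m6 at 30°C). Shares of all genes for the cold fits are not given here, so these ranges are not read as results about the matrix genes. For the 15 pairs of a gene and a comparison called in the report, 393 values under an alternative kept their direction and side of the threshold, 72 fell short of it and 0 changed direction. Of the 150 pairs not called, 21 passed the threshold under at least 1 alternative (46 values in all), Col5a1 for cold in BATdKO mice most often. The cause was not tested. Depth limits the lowest genes: Lama2 had 0 counts in 1 library.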

Other observations

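Within a group, the mouse with the highest level was often the same over many matrix genes. Mouse m1 labelled Cre- at 30°C was the highest of its 6 for 21 of the 33 genes, m2 labelled Cre- at 8°C for 16, m1 labelled BATdKO at 30°C for 13 and m1 labelled BATdKO at 8°C for 12. The lowest mouse was most often m5 labelled BATdKO at 30°C (14 genes), m5 labelled Cre- at 30°C (11) and m6 labelled BATdKO at 8°C (11). The summed level of the 33 genes was 1199 to 1769 CPM in Cre- mice at 30°C, 1267 to 1461 CPM in BATdKO mice at 30°C, 1149 to 1413 CPM in Cre- mice at 8°C and 1156 to 1278 CPM in BATdKO mice at 8°C. The 4 ranges overlapped.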
